A study of Mus musculus with 13 samples.

Results

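The genes of the integrated stress response were followed here in mouse skeletal muscle by polyA RNA sequencing. The set of 10 genes is Atf4, Ddit3, Trib3, Chac1, Asns, Psat1, Phgdh, Mthfd2, Gdf15 and Fgf21, chosen by symbol, and all 10 were found among the 49315 gene identifiers of the count table. The 13 libraries fall into HFSC KO (n = 3), HFSC flox (n = 4), chow KO (n = 3) and chow flox (n = 3). KO mice are systemic miR-181a2b2-/- animals, which lack 1 of the loci encoding miR-181a and miR-181b. Flox mice carry miR-181a2b2flox/flox alleles and no Cre is named for them, so the controls are floxed rather than plain wild-type animals. The diets are labelled CHOW and HFSC, and the second abbreviation is not spelled out. Hindlimb ischemia is named for the whole series, without the limb, the time after surgery or the age of any mouse.

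In the integrated stress response, the kinases PERK, GCN2, PKR and HRI each sense a different stress and phosphorylate the translation factor eIF2. Bulk translation then falls, while translation of Atf4 mRNA rises, and the ATF4 protein switches on genes for amino acid synthesis, uptake and tRNA charging. ATF4 is thus controlled to a large part at translation, which mRNA counts do not measure. In skeletal muscle the pathway is best known from mitochondrial disease, where serine and one-carbon enzymes and the secreted factors FGF21 and GDF15 rise.

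The 5′ arms of the 2 microRNAs encoded by the locus removed in KO mice share a seed, shown here because a seed defines which transcripts a microRNA can pair with. The 3′ arms, miR-181a-2-3p and miR-181b-2-3p, have other seeds, and sites for them were not searched. Mir181a-2 gives its 5′ arm from chr2:38852741-38852763 and Mir181b-2 from chr2:38853845-38853868 (GRCm38.p6, plus strand, RefSeq), and capitals mark seed bases 2 to 8.
mmu-miR-181a-5p: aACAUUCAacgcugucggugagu
mmu-miR-181b-5p: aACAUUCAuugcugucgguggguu
No match to the 7-base or 8-base sites of this seed lay in the annotated 3′ UTR of any of the 10 genes, whose 3′ UTRs are 81 to 1368 bases long. Among the 13938 tested genes with a 3′ UTR, 19.3% held the 7-base site of the seed and 6.3% the 8-base site. A site of this kind is a match of letters, not a measured target. Primary transcripts of these microRNAs were too rare to check the labels: Mir181a-2 had 0 to 2 counts in flox libraries and 0 in KO libraries, and Mir181b-2 had 0 in all 13.

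ATF4 pairs with C/EBP factors on a composite DNA element, and promoters holding its core letters are shown because Chac1 and Asns are described targets that differed between the diets below. The letters searched were TGATGNAA on either strand (TTNCATCA on the other) in the 250 bases before each RefSeq gene start. All 10 genes had a promoter in the table, 12 promoters in all, and 3 genes held the motif, against 3.91% of the 27025 mouse genes with a promoter there. Ddit3 and Phgdh, which were also called between the diets, held no match. A link of the motif to the diet results was not tested. The match starts 193 bases before the start of Chac1, 23 before that of Asns and 139 before that of Fgf21. Capitals mark the match in chr2:119350992-119351241 (plus strand), chr6:7693210-7693459 (minus strand) and chr7:45615491-45615740 (minus strand), all GRCm38.p6.
Chac1: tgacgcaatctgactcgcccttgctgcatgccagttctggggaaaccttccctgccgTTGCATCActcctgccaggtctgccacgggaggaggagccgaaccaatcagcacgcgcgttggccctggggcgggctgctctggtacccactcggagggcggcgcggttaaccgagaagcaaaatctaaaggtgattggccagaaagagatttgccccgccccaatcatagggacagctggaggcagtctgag
Asns: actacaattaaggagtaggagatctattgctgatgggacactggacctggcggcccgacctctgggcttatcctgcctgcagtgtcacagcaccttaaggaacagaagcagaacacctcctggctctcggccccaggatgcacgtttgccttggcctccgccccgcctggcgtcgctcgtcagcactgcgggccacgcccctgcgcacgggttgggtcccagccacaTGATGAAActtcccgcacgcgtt
Fgf21: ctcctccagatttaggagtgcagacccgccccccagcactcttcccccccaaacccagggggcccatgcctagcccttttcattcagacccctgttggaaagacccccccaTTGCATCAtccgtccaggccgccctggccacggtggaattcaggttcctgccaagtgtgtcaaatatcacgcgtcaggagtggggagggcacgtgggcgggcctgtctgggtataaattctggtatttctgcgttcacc
Of these, the Fgf21 promoter alone also held the longer form TGATGNAAT, present in 0.816% of promoters. Elements farther from the start or within the gene were not searched.

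Totals ran from 20830943 to 45710227 counts per library, with a median of 29011060, so that 3 counts, the limit that a count of 0 allows, correspond to 0.0633 to 0.152 CPM, in which counts are set relative to the size of their library. Genes of mature muscle fibres summed to 92444 to 218079 CPM and liver genes to at most 0.259 CPM, although the extraction protocol names white adipose tissue. The 8 adipocyte markers summed to 494 to 797 CPM in HFSC KO and 244 to 523 CPM in HFSC flox, against 212 to 279 CPM in chow KO and 269 to 395 CPM in chow flox. Of the 8, 5 were called higher on HFSC in KO, as were 14.9% of all genes. The part of these markers in the diet results below was not tested. Chow flox replicate 4 stood apart from its group: its 13 macrophage markers summed to 121 CPM, against 402 and 1082 CPM in chow flox replicates 2 and 3 and 46.3 to 82.2 CPM in chow KO. The 13 fibroblast and matrix markers summed to 471 to 757 CPM in chow KO and 1498 to 8128 CPM in chow flox, and none of these markers was at 0 throughout a group. For the 10 genes, results that touch chow flox are therefore also given without replicate 4 where a call changed. In bulk tissue, fewer cells of a type and less RNA per cell cannot be told apart.

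Set per kilobase of exon, the 10 mRNAs differed widely in level. Atf4 (chr15:80255184-80257541, plus strand), the central transcription factor, averaged 53.4 ± 10.4 CPM per kb over all 13 libraries (SD), and Chac1 (chr2:119351229-119354381, plus strand), an enzyme that degrades glutathione, 34.6 ± 16.9. Ddit3 (chr10:127290774-127296288, plus strand), which encodes CHOP, a C/EBP-family factor tied to prolonged stress, had 7.43 ± 1.83 CPM per kb. The ranges of Atf4 and Chac1 overlapped, 40.7 to 72.6 against 15.5 to 75.8 CPM per kb, and Ddit3 lay under both, at 4.88 to 10.6.

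The enzymes followed at a much lower level. Phgdh (chr3:98313170-98339990, minus strand), the first enzyme of serine synthesis, averaged 1.51 ± 0.61 CPM per kb, and Mthfd2 (chr6:83305691-83325908, minus strand), a mitochondrial one-carbon enzyme, 1.47 ± 0.47. Psat1 (chr19:15904678-15947337, minus strand), which acts after PHGDH, had 0.97 ± 0.32 CPM per kb and Asns (chr6:7675169-7693254, minus strand), which makes asparagine, 0.84 ± 0.37. Trib3 (chr2:152337422-152344032, minus strand), a pseudokinase induced by ATF4 and CHOP, stood at 0.59 ± 0.13 CPM per kb. Neighbours in this order overlapped within 1 SD.

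The 2 secreted members were lowest. Gdf15 (chr8:70629393-70632456, minus strand), a hormone that acts on the brainstem, averaged 0.25 ± 0.33 CPM per kb. Fgf21 (chr7:45613886-45615490, minus strand), a hormone best known from liver, averaged 0.058 ± 0.073 CPM per kb and was the only member that the filter on low counts removed, so 9 of 10 were tested. Its counts were 0, 2 and 2 in HFSC KO, 1, 0, 7 and 9 in HFSC flox, 1, 0 and 0 in chow KO and 1, 4 and 0 in chow flox. No difference in Fgf21 was detectable at this depth.

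**Figure D1:**
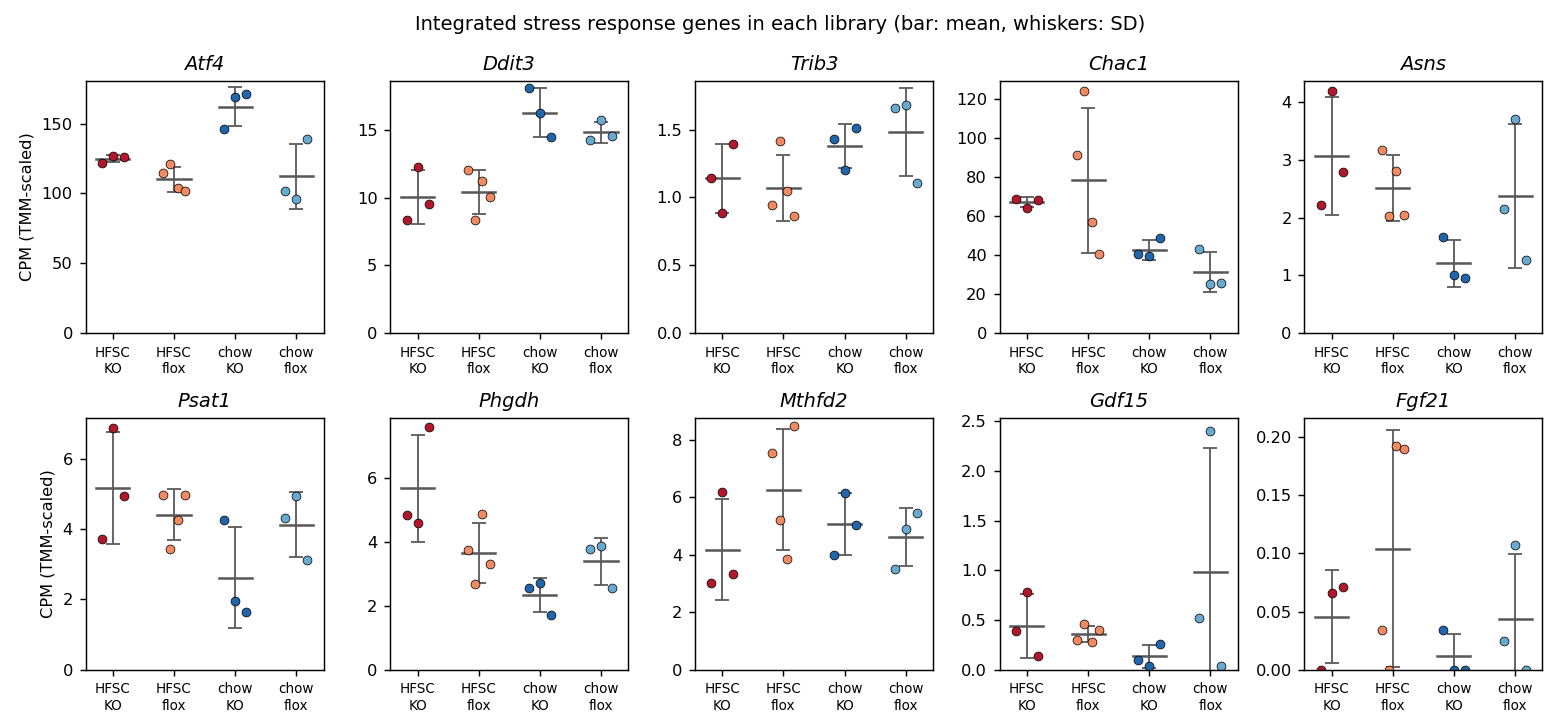
TMM-scaled CPM (vertical axes, from 0) of each of the 10 genes in the 13 libraries, by group along the horizontal axis; points are libraries, bars the group mean and whiskers the SD. Ddit3 is lower in all 7 HFSC libraries than in all 6 chow libraries, Atf4 is highest in chow KO, and 1 chow flox library stands at 2.40 CPM of Gdf15.

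On chow, loss of the locus went with a higher level of Atf4 and with no call for any other member. Atf4 had 146, 169 and 171 CPM in chow KO, against 101, 95.9 and 139 CPM in chow flox replicates 2, 3 and 4. All chow KO libraries lay above all chow flox libraries, with replicate 4 the nearest. The group means were 162 ± 13.9 and 112 ± 23.5 CPM (SD, n = 3 each), a log2 fold change of 0.53 ± 0.14 (SE, edgeR quasi-likelihood test, adjusted p = 0.033). That is 1 of 9 tested members, and 1.38% of the 16496 tested genes were called higher in chow KO (11.5% in either direction). Among all tested genes, 10.9% had all chow KO libraries above all chow flox libraries.

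The call of Atf4 was lost when any of 4 libraries was left out. Of all genes, the fit without chow flox replicate 2 called 2.68%. The fits without chow flox replicate 3 or chow KO replicate 2 or 3 called 0%. Without chow flox replicate 2 the log2 fold change was 0.45 (adjusted p = 0.12), and without chow flox replicate 3 it was 0.42 (adjusted p = 0.15). Without chow KO replicate 2 or 3 it was 0.50 (adjusted p = 0.11) and 0.50 (adjusted p = 0.13), and without chow flox replicate 4 it was 0.72 (adjusted p = 0.00035), in a fit that called 42.8% of all genes. With plain library totals as the scale it was 0.22 and missed the threshold (adjusted p = 0.065), but the median of all genes was then -0.35, and relative to that median Atf4 stood at 0.57. Over these libraries Atf4 was high where macrophage and matrix markers were low: 12 of 13 macrophage, 13 of 13 fibroblast and matrix and 7 of 10 dividing cell markers were lower in chow KO, against 10.1% of all genes. In the fits that called 0% of all genes, these marker calls were lost too. Of the markers of mature muscle fibres, 9 of 10 had positive estimates in this contrast, with a median of 0.44, and 0 were called. The part of these marker lists in the Atf4 result was not tested.

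The amino acid enzymes had lower means in chow KO, without a call. Asns had 1.67, 0.999 and 0.95 CPM in chow KO, against 2.15, 3.71 and 1.26 CPM in chow flox replicates 2, 3 and 4. The chow KO values overlapped chow flox replicate 4, and the log2 fold change was -0.98 ± 0.39 (adjusted p = 0.11). Psat1 differed by -0.65 ± 0.34 (adjusted p = 0.19) and Phgdh by -0.55 ± 0.28 (adjusted p = 0.19). Without chow flox replicate 4 Asns stood at -1.26 and passed (adjusted p = 0.012), in a fit that called 42.8% of all genes. Without chow KO replicate 1 Psat1 stood at -1.20 and passed (adjusted p = 0.047), beside 5.48% of all genes. Each was called in only 1 of the 6 fits with a library left out. In the other fits Asns came as near to 0 as -0.53 (adjusted p up to 0.49) and Psat1 as -0.40 (up to 0.50). Of the 6 fits, those without chow flox replicate 3 or chow KO replicate 2 or 3 called 0% of all genes.

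Gdf15 showed the widest scatter. Its counts were 3, 1 and 6 in chow KO (0.10, 0.040 and 0.26 CPM), against 21, 90 and 1 in chow flox replicates 2, 3 and 4 (0.52, 2.40 and 0.038 CPM). A single chow flox library thus held most of its reads, and replicate 4 lay below all chow KO libraries in CPM. The log2 fold change of -2.91 ± 1.04 missed the threshold (adjusted p = 0.080). Without chow flox replicate 4 it was -3.44 and passed (adjusted p = 0.0037), in a fit that called 42.8% of all genes. That was the only 1 of the 6 fits with a library left out that called Gdf15. Over those 6 fits the estimate ran from -3.71 to -1.22, with adjusted p up to 0.52. Those without chow flox replicate 3 or chow KO replicate 2 or 3 called 0% of all genes. Ddit3, Trib3, Chac1 and Mthfd2 differed by 0.14, -0.11, 0.45 and 0.14 on the log2 scale, with adjusted p from 0.34 to 0.79.

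On HFSC, KO and flox muscle were not told apart for any member. Of 9 tested members 0 passed in edgeR, DESeq2 or limma voom, and 1, Phgdh, had an unadjusted p under 0.05; over all genes 0.0182% were called, all of them higher in KO, and 5.31% had HFSC KO below HFSC flox without overlap. Atf4 had 122, 127 and 126 CPM in HFSC KO, against 115, 121, 104 and 102 CPM in HFSC flox. The groups did not overlap, by a narrow margin, and the log2 fold change was 0.18 ± 0.13 (adjusted p = 0.68); 7.4% of all genes had HFSC KO above HFSC flox in this way. Phgdh had 4.87, 4.59 and 7.61 CPM in HFSC KO, against 3.75, 2.68, 4.89 and 3.32 CPM in HFSC flox, which overlap, with a log2 fold change of 0.63 ± 0.26 (adjusted p = 0.42). Mthfd2 stood at -0.59 ± 0.31 (adjusted p = 0.55), and the other tested members lay between -0.22 and 0.32.

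**Figure D2:**
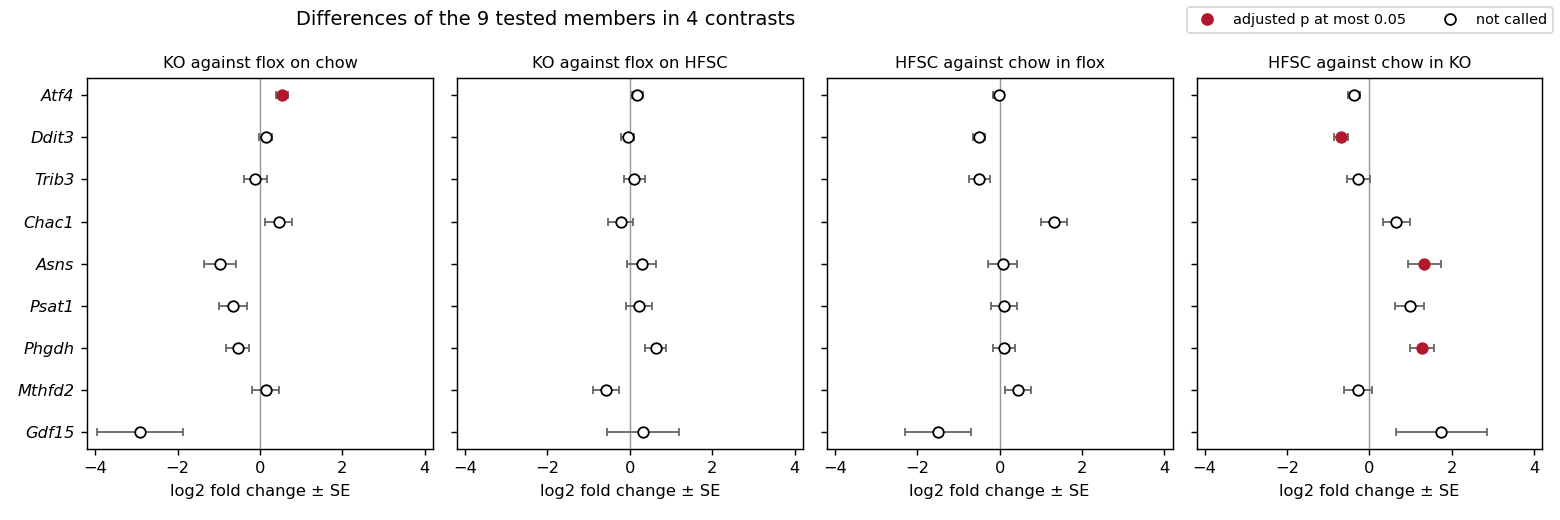
Log2 fold change (horizontal axes) of the 9 tested members in 4 contrasts, 1 panel each; points are edgeR estimates, whiskers the SE, and filled points passed an adjusted p of 0.05. Atf4 passed on chow, and Ddit3, Asns and Phgdh passed between the diets in KO.

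Between the diets, Ddit3 was lower and Chac1 and Phgdh were higher on HFSC when both genotypes were averaged. Ddit3 had 8.38, 12.3 and 9.54 CPM in HFSC KO and 12.1, 8.36, 11.3 and 10.1 CPM in HFSC flox, against 18.1, 16.3 and 14.5 CPM in chow KO and 14.3, 15.7 and 14.6 CPM in chow flox. Every HFSC library lay below every chow library, and the share of all genes that did so was not counted. Within KO alone 23.8% of all genes were lower on HFSC without overlap, and within flox alone 5.6%. The averaged log2 fold change of Ddit3 was -0.60 ± 0.11 (edgeR, adjusted p = 0.0056). Its call held when each of the 13 libraries was left out in turn. In all 3 of 9 members passed in this contrast, 2 higher and 1 lower, against 15.1% of all tested genes (8.98% higher and 6.17% lower). Asns stood at 0.70 (adjusted p = 0.087) and Psat1 at 0.54 (adjusted p = 0.13). Atf4 stood at -0.20 and Trib3 at -0.39 (adjusted p = 0.17 for each). Mthfd2 stood at 0.09 (adjusted p = 0.81) and Gdf15 at 0.12 (adjusted p = 0.92).

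The same libraries differed in fibre type. Slow fibre markers, 9 genes mostly of the slow contractile apparatus, summed to 774 to 1277 CPM in HFSC KO and 822 to 2074 CPM in HFSC flox, against 8643 to 10194 CPM in chow KO and 6918 to 8911 CPM in chow flox. None was at 0 throughout a group, and all 9 were lower on HFSC in the averaged contrast. Like Ddit3, their sum separated the diets without overlap. Their part in the Ddit3 result was not tested. On the annotation Ddit3 overlaps Mars, a tRNA synthetase gene on the opposite strand, the noncoding Gm4189 and a second Ddit3 identifier; since the strand setting is not stated, reads that fall in such overlaps cannot be assigned to 1 gene.

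Chac1 had 68.9, 64.3 and 68.1 CPM in HFSC KO and 91.6, 124, 57.1 and 40.6 CPM in HFSC flox, against 40.3, 39.3 and 48.5 CPM in chow KO and 43.0, 25.3 and 25.4 CPM in chow flox. The HFSC flox libraries were spread widely and the lowest of them overlapped chow flox, whereas the KO groups were separate. The averaged log2 fold change was 0.99 ± 0.23 (adjusted p = 0.015), called without each of the 13 libraries in turn. Without the filter on low counts it was 0.97 and just missed the threshold (adjusted p = 0.054). Within flox it was 1.32 ± 0.32 (adjusted p = 0.10) and within KO 0.65 ± 0.33 (adjusted p = 0.15).

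In flox mice alone no member passed the diet test. The count was 0 of 9 with edgeR, where Ddit3 and Chac1 had an unadjusted p under 0.05; it was 1 with DESeq2, Chac1, and 4 with limma voom. Over all genes 0.418% were called, 0.115% higher and 0.303% lower, while DESeq2 called 2.38% and limma voom 25.1% of them. Ddit3 stood at -0.51 ± 0.15 (adjusted p = 0.19), with all HFSC flox libraries below all chow flox libraries, as for 5.6% of all genes. Trib3 stood at -0.50 ± 0.25 (adjusted p = 0.44), Mthfd2 at 0.45 ± 0.31 (adjusted p = 0.59) and Gdf15 at -1.49 ± 0.81 (adjusted p = 0.47). Atf4, Asns, Psat1 and Phgdh lay between -0.03 and 0.11.

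In KO mice 3 members passed: Asns and Phgdh were higher and Ddit3 was lower on HFSC. This is 33.3% of the tested members, near the 25.5% of all genes called in this contrast (14.9% higher and 10.6% lower). Asns had 2.22, 4.195 and 2.79 CPM in HFSC KO, against 1.67, 0.999 and 0.95 CPM in chow KO. The groups did not overlap, and the log2 fold change was 1.34 ± 0.40 (adjusted p = 0.029). The call was lost without HFSC KO replicate 3 (1.04, adjusted p = 0.10) or 4 (1.37, adjusted p = 0.066), and without chow KO replicate 2 (1.21, adjusted p = 0.094) or 3 (1.19, adjusted p = 0.11).

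Phgdh had 4.87, 4.59 and 7.61 CPM in HFSC KO, against 2.56, 2.72 and 1.72 CPM in chow KO. Again all HFSC KO libraries were higher, with a log2 fold change of 1.28 ± 0.28 (adjusted p = 0.0097) that was called without each of the 6 libraries in turn. In all 26.8% of genes had HFSC KO above chow KO and 23.8% below. Averaged over the genotypes Phgdh stood at 0.69 ± 0.19 (adjusted p = 0.032); that call was lost without chow KO replicate 1 (0.73, adjusted p = 0.051) or 3 (0.61, adjusted p = 0.084), without HFSC flox replicate 1 (0.69, adjusted p = 0.052), 3 (0.61, adjusted p = 0.058) or 4 (0.72, adjusted p = 0.052), without HFSC KO replicate 4 (0.54, adjusted p = 0.095) and with library totals (0.69, adjusted p = 0.091).

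Ddit3 in KO was lower on HFSC without overlap, with a log2 fold change of -0.70 ± 0.16 (adjusted p = 0.012), called without each of the 6 libraries in turn. With library totals it was -0.52 and missed the threshold (adjusted p = 0.12); the median of all genes was then 0.21, and relative to it Ddit3 stood at -0.72. Psat1, with 3.72, 6.88 and 4.93 CPM in HFSC KO against 4.26, 1.96 and 1.64 CPM in chow KO, stood at 0.97 ± 0.34 and narrowly missed (adjusted p = 0.053). It passed without HFSC KO replicate 2 (1.16, adjusted p = 0.047) or chow KO replicate 1 (1.52, adjusted p = 0.014). Atf4 stood at -0.38 ± 0.14 (adjusted p = 0.064), with 122 to 127 CPM in HFSC KO below the 146 to 171 CPM of chow KO. Trib3 and Mthfd2 each stood at -0.27 (adjusted p = 0.47 and 0.56). Gdf15 had the largest estimate, 1.74 ± 1.11, and did not pass (adjusted p = 0.25).

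Markers of other cells moved along with Asns and Phgdh in KO. For HFSC against chow in KO, 13 of 13 fibroblast and matrix, 9 of 13 macrophage, 9 of 10 dividing cell and 9 of 10 endothelial markers were higher on HFSC, against 14.9% of all genes. Dividing cell markers summed to 19.2 to 35.4 CPM in HFSC KO and 22.8 to 44.0 CPM in HFSC flox, against 3.96 to 6.51 CPM in chow KO and 7.09 to 37.3 CPM in chow flox. Endothelial markers summed to 757 to 842 CPM in HFSC KO and 547 to 773 CPM in HFSC flox, against 363 to 386 CPM in chow KO and 376 to 571 CPM in chow flox. Chow KO was at the low end of each, as it was for Asns and Phgdh. Their part in the Asns and Phgdh results was not tested.

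**Figure D3:**
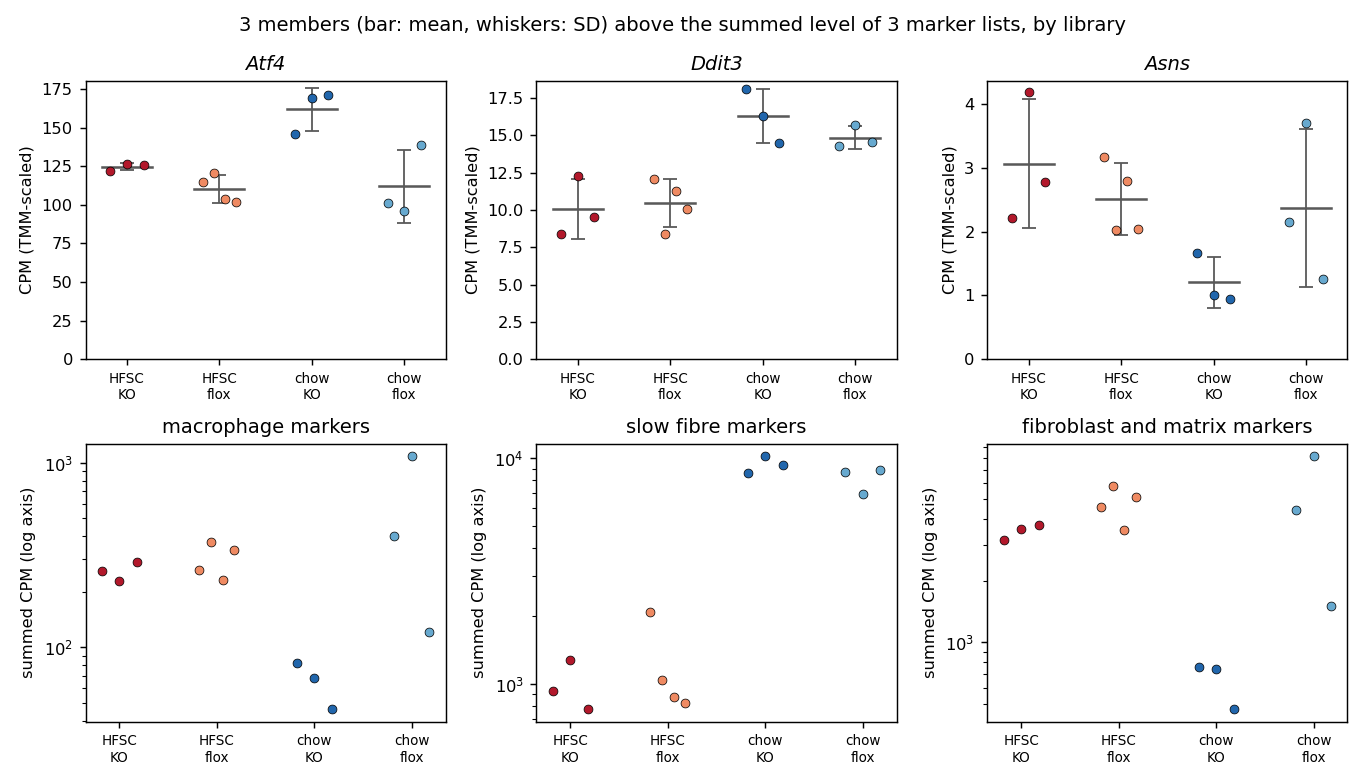
Top row, TMM-scaled CPM of Atf4, Ddit3 and Asns by library and group (axes from 0; bar, mean; whiskers, SD); bottom row, summed CPM of macrophage, slow fibre, and fibroblast and matrix markers in the same libraries on log axes. Chow KO has the lowest macrophage and matrix sums and the highest Atf4, and both Ddit3 and the slow fibre sum separate the diets.

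Whether the diet acted differently in KO than in flox was tested as an interaction. No member passed in edgeR, and 0% of all genes did, although Asns, Phgdh and Gdf15 had an unadjusted p under 0.05, as did 4811 of 16496 genes. Phgdh came nearest, at 1.18 ± 0.38 on the log2 scale (adjusted p = 0.094), followed by Asns at 1.26 ± 0.53 (adjusted p = 0.14) and Gdf15 at 3.24 ± 1.37 (adjusted p = 0.15). Psat1 stood at 0.87, Trib3 at 0.22, Atf4 at -0.35, Ddit3 at -0.19, Chac1 at -0.67 and Mthfd2 at -0.72. Their adjusted p ran from 0.22 to 0.71. DESeq2 called 1 member, Phgdh, and 12.3% of all genes, and limma voom called 5 members and 42.8% of all genes. Without chow flox replicate 4 edgeR called 4 members: Atf4 at -0.54 (adjusted p = 0.012), Asns at 1.55 (adjusted p = 0.020), Phgdh at 1.33 (adjusted p = 0.015) and Gdf15 at 3.77 (adjusted p = 0.013). That fit called 34.9% of all 16972 genes tested, so 4 of 9 members is near the share of all genes. The calls of Asns and Phgdh in KO are therefore not shown to differ from flox.

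The members did not move as 1 group. On chow 4 of 9 had a positive KO difference and the median log2 fold change was -0.11, against -0.01 over all genes. On HFSC 6 of 9 were positive and the median KO difference was 0.18, against 0.00 over all genes. Between the diets 5 of 9 were positive in KO, where 2 were called higher and 1 lower. The median was 0.65 there, against 0.02 over all genes. In flox 5 of 9 were positive and the median was 0.07, against -0.01.

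Over the 13 libraries, which share the group differences and the marker levels above, Asns and Psat1 tracked each other (Pearson r = 0.90, or 0.80 on deviations from the group means). Atf4 and Asns ran in opposite directions (r = -0.75, or -0.67 on those deviations), as did Ddit3 and Chac1 (r = -0.71, or -0.34). The genes most like Atf4 in log2 CPM were Twf2 (r = 0.99, Spearman's rho = 0.95), Emc6 (0.97, 0.96), the lysyl-tRNA synthetase gene Kars (0.97, 0.95), Acbd6 (0.96, 0.96) and 4933434E20Rik (0.96, 0.91). Those most like Ddit3 were Pla2g4b (r = 0.94, rho = 0.88), the slow-type myosin gene Myh7b (0.94, 0.93), the slow troponin genes Tnni1 (0.92, 0.84) and Tnnt1 (0.92, 0.82), and Eif2s3y (0.92, 0.88). These are descriptions over 13 libraries in 4 groups, without a test.

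The pathway genes that follow are to be read against the shares of all genes already given, for HFSC against chow in KO 14.9% higher and 10.6% lower, and for KO against flox on chow 1.38% higher and 10.1% lower. The pathway lists held 14 tested genes for eIF2 kinases, phosphatase subunits and eIF2B, 8 bZIP factors and 12 other ATF4 and CHOP targets. They further held 11 serine, proline and one-carbon enzymes, 7 amino acid transporters and 18 aminoacyl-tRNA synthetases. The rest were 18 genes of the IRE1 and ATF6 arms, 9 mitochondrial stress genes and 3 receptors. Atf3, Atf5 and Ppp1r15a were on more than 1 list. On chow 11 pathway genes were called, beside 11.5% of all genes in either direction. Each of these calls was lost in 3 to 5 of the 6 fits that left out a library, with the highest adjusted p between 0.109 and 0.176. The fits without chow flox replicate 3 or chow KO replicate 2 or 3 called 0% of all genes. None of the 11 passed with the replicate block, which also called 0% of all genes on chow. All 11 passed without chow flox replicate 4, where 58 pathway genes were called beside 42.8% of all genes. Without that library 14 pathway genes also passed between the diets in flox and 42 in the interaction, beside 8.58% and 34.9% of all genes.

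Upstream of ATF4, the kinases differed from one another. Eif2ak3 encodes PERK, the sensor in the endoplasmic reticulum. It had 10.2, 7.80 and 10.1 CPM in HFSC KO and 9.05, 8.61, 7.47 and 8.97 CPM in HFSC flox, against 4.78, 4.32 and 4.44 CPM in chow KO and 7.99, 8.33 and 5.53 CPM in chow flox. Chow KO stood below every other library, and the log2 fold change of Eif2ak3 was 1.05 ± 0.17 for HFSC against chow in KO (adjusted p = 0.0029) and -0.69 ± 0.17 for KO against flox on chow (adjusted p = 0.027). So on chow Eif2ak3 was lower in the group where Atf4 mRNA was higher. Among all genes 13.9% had chow KO below chow flox without overlap.

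Of the 14 genes for eIF2 kinases, eIF2 phosphatase subunits and eIF2B, 2 were lower in KO on chow, Eif2ak3 and the PKR gene Eif2ak2 (-0.76 ± 0.21, adjusted p = 0.036). Between the diets in KO 3 of the 14 were higher and 1 lower, near the share of all genes. Besides Eif2ak3, the GCN2 gene Eif2ak4 (0.60 ± 0.14, adjusted p = 0.011) and Ppp1r15a, the inducible phosphatase subunit GADD34 (0.89 ± 0.23, adjusted p = 0.018), were higher. Eif2ak1, the HRI gene, was lower (-0.53 ± 0.18, adjusted p = 0.045). The Eif2ak1 call was lost whichever of the 6 libraries was left out (adjusted p up to 0.14). That of Ppp1r15a was lost without HFSC KO replicate 3 or chow KO replicate 2 or 3 (up to 0.072), and that of Eif2ak4 without HFSC KO replicate 4 or chow KO replicate 3 (up to 0.055). None of the 14 passed for KO against flox on HFSC or between the diets in flox, where Ppp1r15a stood at 1.04 ± 0.22 (adjusted p = 0.071). Averaged over both genotypes Ppp1r15a was higher on HFSC by 0.96 ± 0.16 (adjusted p = 0.0033). It had 27.8, 47.8 and 32.2 CPM in HFSC KO and 34.6, 22.8, 31.9 and 35.1 CPM in HFSC flox, against 22.8, 17.1 and 18.3 CPM in chow KO and 13.7, 12.4 and 19.6 CPM in chow flox. The highest chow library and the lowest HFSC library were nearly level.

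Among 8 bZIP factors related to ATF4, Atf3 and Atf5 differed in opposite directions between the diets. Atf3, a stress-induced repressor, had 42.0, 64.9 and 52.6 CPM in HFSC KO and 29.7, 21.02, 42.0 and 80.3 CPM in HFSC flox, against 4.81, 3.12 and 8.10 CPM in chow KO and 14.03, 15.2 and 11.8 CPM in chow flox. Every HFSC library was above every chow library, and the share of all genes that did so was not counted. Within KO alone 26.8% of all genes were higher on HFSC without overlap, and within flox alone 4.26%. The log2 fold change of Atf3 was 3.32 ± 0.46 in KO (adjusted p = 0.0016). In flox it was 1.66 ± 0.41 and did not pass (adjusted p = 0.11). The interaction was 1.66 ± 0.58 (adjusted p = 0.10).

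Atf5, which is translated under stress in the same manner as Atf4, had 42.2, 49.5 and 37.0 CPM in HFSC KO, against 80.5, 81.4 and 82.9 CPM in chow KO. It was thus lower on HFSC in KO (log2 fold change -0.93 ± 0.22, adjusted p = 0.013, but 0.052 without HFSC KO replicate 4), and in flox it stood at -0.29 ± 0.21 (adjusted p = 0.60). On chow Batf3, an AP-1 family factor known from dendritic cells, was the only 1 of the 8 called between the genotypes (-1.90 ± 0.47, adjusted p = 0.027).

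Other described targets of ATF4 and CHOP gave 2 higher and 2 lower of 12 tested between the diets in KO, near the share of all genes. Atf3, Atf5 and Ppp1r15a are also on this list, so the remaining call is Cth, the transsulfuration enzyme that makes cysteine. Cth had 0.82, 1.34 and 1.25 CPM in HFSC KO, against 2.69, 3.04 and 2.63 CPM in chow KO, and was lower on HFSC (-1.29 ± 0.29 on the log2 scale, adjusted p = 0.0099). On chow 1 of the 12 was higher in KO, Eif4ebp1, a translation repressor induced by ATF4, with 39.9, 41.7 and 40.7 CPM in chow KO against 24.2, 24.9 and 35.9 CPM in chow flox (0.53 ± 0.15, adjusted p = 0.040).

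Of 7 amino acid transporters tested, 2 were higher and 1 was lower on HFSC in KO. The estimates were positive for 6 of the 7, with a median of 0.57 on the log2 scale, against 0.02 over all genes. Slc38a2, the neutral amino acid transporter SNAT2, had 214, 415 and 311 CPM in HFSC KO, against 132, 178 and 200 CPM in chow KO (0.88 ± 0.25, adjusted p = 0.026). Slc1a5, a glutamine transporter, was higher (0.84 ± 0.24, adjusted p = 0.027). With a library left out, Slc38a2 was called only without HFSC KO replicate 2 (adjusted p otherwise up to 0.10), and Slc1a5 missed without HFSC KO replicate 4 or chow KO replicate 2 or 3 (up to 0.11). The glycine transporter gene Slc6a9 was lower, with 2.76, 2.36 and 3.18 CPM in HFSC KO against 6.14, 5.71 and 5.64 CPM in chow KO (-1.08 ± 0.17, adjusted p = 0.0028). None of the 7 passed between the genotypes on either diet or between the diets in flox.

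Other enzymes of serine, glycine, proline and one-carbon metabolism mostly did not share the calls of Asns and Phgdh. Of 11 tested, 0 were higher and 1 was lower on HFSC in KO, the cytosolic serine enzyme Shmt1 (-0.64 ± 0.18, adjusted p = 0.023). Of the 18 cytosolic aminoacyl-tRNA synthetases, which charge tRNAs with amino acids, 0 were higher and 1 was lower, Vars (-0.46 ± 0.16, adjusted p = 0.047), and the list median was -0.27. Shmt1 passed in 2 of the 6 fits that left out a library (adjusted p up to 0.074) and Vars in 1 (up to 0.13). On chow 1 of the 18 passed between the genotypes, Eprs, which had 341, 390 and 384 CPM in chow KO against 251, 198 and 315 CPM in chow flox (0.55 ± 0.16, adjusted p = 0.042). All 18 synthetase estimates were positive in that contrast, with a median of 0.35, against -0.01 over all genes. With library totals the median over all genes moved to -0.35 there. In the same contrast 9 of 10 markers of mature muscle fibres had positive estimates, with a median of 0.44, and 12 of 13 macrophage and 13 of 13 fibroblast and matrix markers were lower in KO. Their part in the synthetase values was not tested.

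**Figure D4:**
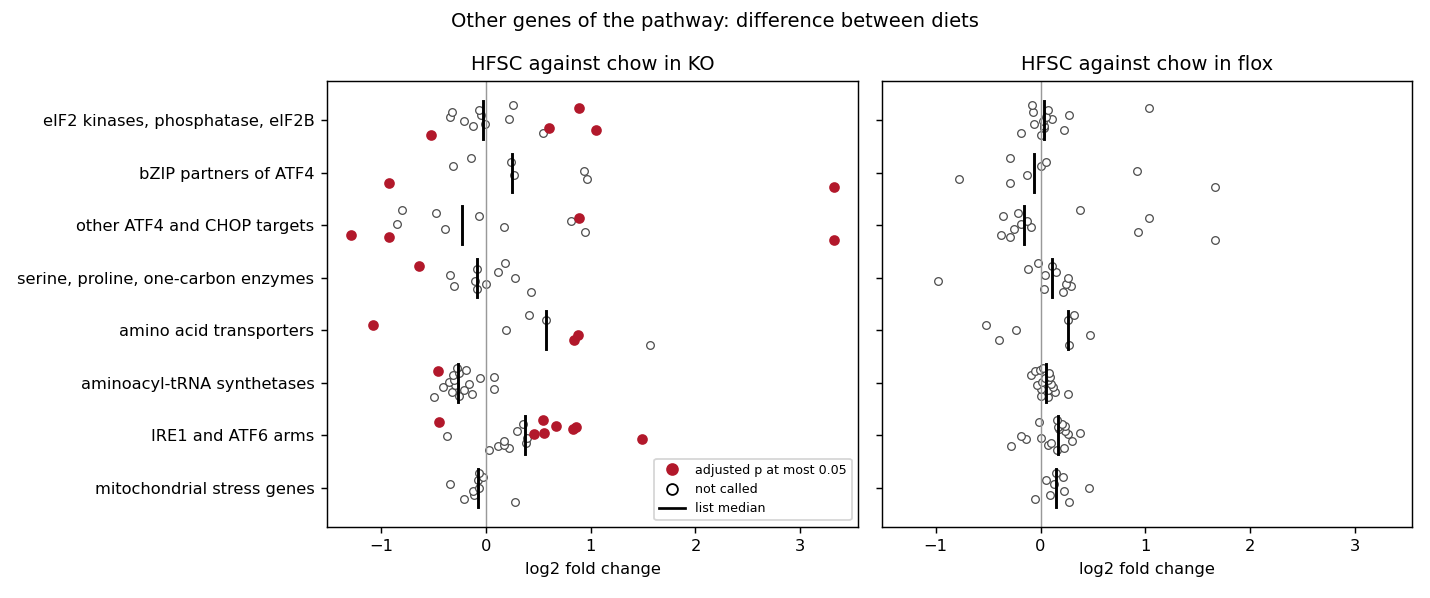
Log2 fold change of HFSC against chow (horizontal axes) for genes of 8 lists around the pathway, in KO (left) and flox (right); each point is a gene, filled where the adjusted p was at most 0.05, and black lines are list medians. Atf3, Atf5 and Ppp1r15a appear in more than 1 list; in KO the calls lie on both sides of 0, and in flox no gene passed.

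The IRE1 and ATF6 arms of the endoplasmic reticulum response, which run beside PERK, were higher on HFSC in KO in 7 of 18 genes and lower in 1, against 14.9% and 10.6% of all genes. In that contrast the fibroblast and matrix, macrophage, dividing cell and endothelial markers were higher too, as counted above, and their part in these values was not tested. Pdia6, a disulfide isomerase, stood at 0.67 ± 0.11 (adjusted p = 0.0029) and Xbp1, the target of IRE1, at 0.55 ± 0.10 (adjusted p = 0.0044). Hspa5, the chaperone BiP, had 253, 250.4 and 256 CPM in HFSC KO and 245, 239, 226 and 241 CPM in HFSC flox, against 167, 173 and 178 CPM in chow KO and 186, 184 and 178 CPM in chow flox. All HFSC libraries lay above all chow libraries, and the share of all genes that did so was not counted. Within KO alone 26.8% of all genes were higher on HFSC without overlap, and within flox alone 4.26%. Hspa5 differed by 0.55 ± 0.09 in KO (adjusted p = 0.0036) and by 0.38 ± 0.09 in flox, where it did not pass (adjusted p = 0.098). Sel1l, of the degradation machinery, was lower in KO (-0.45 ± 0.12, adjusted p = 0.021), a call that held in 2 of the 6 fits with a library left out (adjusted p up to 0.079). Of the 7 called higher, Hsp90b1, Pdia4 and Edem1 held in 2, 3 and 5 of those fits, and Pdia6, Xbp1, Hspa5 and Manf in all 6. Here Hsp90b1, Pdia4, Edem1 and Manf are named beyond the naming rule given below, after their values were seen. On chow 4 of the 18 were lower in KO than in flox, among them Pdia4 (-0.93 ± 0.21, adjusted p = 0.023), Edem1 (-1.44 ± 0.34, adjusted p = 0.023) and Pdia6 (-0.45 ± 0.11, adjusted p = 0.025).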

How the data were processed

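PolyA RNA of 13 skeletal muscle samples was sequenced, and groups were taken from the genotype and diet labels. The authors deposited raw counts of reads per Ensembl gene, and the submitters' processing notes name GRCm38, featureCounts (Subread 1.5.2), STAR 2.5.2b and Trimmomatic 0.36. For the annotation release and strand setting, nothing is given in the sources used here. Symbols and coordinates came from GENCODE M21 (GRCm38), which matched 49056 of 49315 identifiers. Promoters and microRNAs came from RefSeq.

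The main test was edgeR 4.0.16 (R 4.3.3), a robust quasi-likelihood fit of the 4 group means to all 13 libraries, scaled by TMM (factors 0.834 to 1.32). After filterByExpr 16496 genes remained, over which Benjamini-Hochberg adjustment was made; calls are adjusted p of at most 0.05. Each SE is the log2 fold change divided by the root of its F value. CPM use TMM library sizes. Samples may not be separate animals, since no label states it, and the spread behind the p-values may be partly technical. Replicate pairs differed by 10.5 to 193 times sampling noise (chi-square per degree of freedom). Floors cover counting error only. The test was checked on simulated counts, with no outcome reported here.

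The members and gene lists were chosen with earlier results of these data known. By the naming rule, members were described in every contrast. At most 3 called genes per list and direction were named, except where stated. Alternatives were RLE size factors, library totals, DESeq2 1.42.0, limma 3.58.1 voom with sample weights, no filter, a replicate block, only the groups compared, and each library left out.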

Additional observations from a re-analysis of the deposited data

How the results depend on the processing

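The tests rest on 3 or 4 libraries a group and 20830943 or more counts per library, which limits Gdf15 and Fgf21 most. None of the 7 member calls changed direction under any alternative run.

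Of the 9 tested members, KO against flox on chow gave 1 call, and 0 with library totals, the replicate block or only the groups compared, 2 with DESeq2, 5 with limma voom and 0 to 3 with a library left out. HFSC against chow in flox gave 0, and 1 with DESeq2 and 4 with limma voom. HFSC against chow in KO gave 3, and 5 with DESeq2, with limma voom or with only the groups compared, and 2 to 4 with a library left out. HFSC against chow averaged over genotypes gave 3, and 6 with limma voom and 2 to 4 with a library left out. The interaction gave 0, and 1 with DESeq2, 5 with limma voom and 0 to 4 with a library left out. Over all genes, KO against flox on chow gave 1898 calls, 3096 with library totals, 3256 with DESeq2, 9877 with limma voom, 2 with only the groups compared and 0 to 7261 with a library left out. Likewise KO against flox on HFSC gave 3, 165 with DESeq2, 33 with limma voom, 22 with no filter and 0 with library totals or only the groups compared. HFSC against chow gave 69 in flox (392 with DESeq2, 4145 with limma voom, 4 with only the groups compared), 4201 in KO (7116 with limma voom, 2382 with the replicate block) and 2499 averaged (5732 with limma voom, 1559 with library totals, 1504 with the replicate block). The interaction gave 0, 2025 with DESeq2, 7061 with limma voom, 161 with no filter and up to 5928 with a library left out. Library totals left 2.58% of these calls higher in KO on chow, against 12.01% with TMM, and 69.7% against 58.5% higher for HFSC against chow in KO, 16.1% against 27.5% in flox and 48.8% against 59.3% averaged. The cause was not tested.

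What the replicate numbers stand for is not stated. Of 16 same-numbered pairs 1 had a correlation of deviations over 0.1 (range -0.34 to 0.11). Differently numbered pairs were not compared with them, so this does not settle whether the numbers pair the libraries. With the replicate block Atf4 on chow stood at 0.59 (adjusted p = 0.068) and 0 of all genes passed there; Psat1 in KO (1.27, adjusted p = 0.040) and Asns averaged (0.81, adjusted p = 0.043) passed, and Phgdh averaged did not (0.69, adjusted p = 0.084).

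Of 825 values under alternatives, 39 changed sign, none of them called in either fit. With library totals these were KO against flox on chow for Ddit3 (-0.21) and Mthfd2 (-0.20), HFSC against chow in flox for Asns (-0.16), Psat1 (-0.089) and Phgdh (-0.0782), and the interaction for Ddit3 (0.15). With limma voom they were KO against flox on HFSC for Psat1 (-0.0281) and Gdf15 (-0.11) and HFSC against chow in flox for Atf4 (0.11) and Phgdh (-0.0597). With the replicate block they were KO against flox on HFSC for Ddit3 (0.0114) and Gdf15 (-0.20) and HFSC against chow in flox for Atf4 (0.0048), Asns (-0.0274) and Psat1 (-0.0757). With 1 library left out, the values ran from -0.0467 to 0.29 for Mthfd2 in KO against flox on chow. In KO against flox on HFSC they ran from -0.22 to 0.0626 for Ddit3, -0.0682 to 0.27 for Trib3, -0.44 to 0.0906 for Chac1, -0.0069 to 0.47 for Asns, -0.033 to 0.42 for Psat1 and -0.40 to 0.72 for Gdf15. In HFSC against chow in flox they ran from -0.11 to 0.16 for Atf4, -0.22 to 0.55 for Asns, -0.0576 to 0.26 for Psat1, -0.0666 to 0.22 for Phgdh and -2.02 to 0.23 for Gdf15. Averaged over genotypes they ran from -0.11 to 0.18 for Mthfd2 and -0.24 to 0.99 for Gdf15. The cause was not tested.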

Other observations

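Receptors for the secreted members gave a further pattern. Ret, the co-receptor of GDF15, had 10.2, 8.36 and 8.36 CPM in HFSC KO and 10.4, 12.4, 9.61 and 10.7 CPM in HFSC flox, against 4.40, 3.996 and 3.02 CPM in chow KO and 7.37, 7.05 and 6.33 CPM in chow flox. The chow KO libraries lay below all others and the diets did not overlap, patterns that were not counted over all genes. Ret was higher on HFSC in KO by 1.24 ± 0.16 on the log2 scale (edgeR, adjusted p = 0.0014), and lower in KO than in flox on chow (-0.86 ± 0.16, adjusted p = 0.017). With a library left out, the call in KO held in all 6 fits and that on chow in 3 of 6 (adjusted p up to 0.11). In flox the diet difference of 0.64 ± 0.15 missed the threshold (adjusted p = 0.098), and the interaction was 0.60 ± 0.22 (adjusted p = 0.11). Gfral, the ligand-binding receptor of GDF15 known from the brainstem, was at 0 in all HFSC flox and chow flox libraries and did not pass the filter. Klb, the FGF21 co-receptor, had 10, 13 and 17 counts in HFSC KO, against 6, 0 and 1 in chow KO (adjusted p = 0.042), which is near the floor of 3 counts, and the call held in 1 of the 6 fits with a library left out (adjusted p up to 0.14).

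Of the 9 mitochondrial stress genes, 1 was higher in KO on chow, the chaperonin gene Hspe1 (0.53 ± 0.14, adjusted p = 0.029; called in 2 of 6 fits with a library left out, adjusted p up to 0.14), and 0 passed between the diets in KO, where the list median was -0.07.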
